A study of Saccharomyces cerevisiae with 4 samples.

Results

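SNR3, SNR32, SNR84, SNR86 and SNR191 are the 5 yeast box H/ACA small nucleolar RNAs (snoRNAs) whose uridine targets lie between nucleotides 2120 and 2320 of the 25S rRNA, in its domain IV. They were chosen by these target positions and not by their read numbers, and they are 5 of 77 snoRNAs listed in the deposited tables. The data come from PAR-CRAC, in which RNA that has taken up 4-thiouracil is cross-linked to protein by light of 365 nm. The protein is purified, and the bound RNA is sequenced. T-to-C changes arise when RNA that holds 4-thiouracil is reverse transcribed. Of the 4 libraries, 2 came from the Dbp7-HTP strain and 2 from wild-type (WT) yeast that carries no tagged protein, all in the BY4741 background. In the Dbp7-HTP strain the RNA helicase Dbp7 is made from its own locus with a His-TEV-ProtA tag at its C terminus, so that the WT libraries hold the RNA that comes through the purification without a tagged protein. Cells of both strains had 4-thiouracil in the medium. The comparison asks whether RNA of these guides, and the pre-rRNA at their targets, was recovered more from Dbp7-HTP cells than from WT.

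A box H/ACA snoRNA folds into hairpins whose internal loops pair with rRNA on both sides of a uridine, and the snoRNA is bound by Cbf5, Nhp2, Nop10 and Gar1. Cbf5, the pseudouridine synthase, turns the unpaired uridine into pseudouridine while the pre-rRNA is still in the nucleolus. Domain IV of 25S lies at the face of the large subunit that meets the small subunit, and helix H69, with several pseudouridines, belongs to it. SNR3 guides U2129, U2133 and U2264, SNR32 guides U2191, SNR191 guides U2258 and U2260, SNR84 guides U2266, and SNR86 guides U2314. The 5 guides thus have 8 target uridines, and 3 of the guides have 1 target each.

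The sequences around the targets are shown because the read coverage and the substitutions described further on were measured on these letters. They were read 5′ to 3′ from the sequence deposited with the coverage, which writes T for U. Capitals mark the target uridines.
U2129 and U2133, nucleotides 2119 to 2143 of 25S: aaggggaatcTgacTgtctaattaa
U2191, nucleotides 2181 to 2201: caatgtgattTctgcccagtg
U2258, U2260, U2264 and U2266, nucleotides 2248 to 2276: cgggagtaacTaTgacTcTcttaaggtag
U2314, nucleotides 2304 to 2324: cgcgcatgaaTggattaacga
The third of these lines holds targets of SNR191, SNR3 and SNR84 within a few nucleotides of each other. None of the 8 targets is followed by another T. The next base is G at 4 targets, C at 3 and A at 1. These stretches hold 7, 7, 8 and 4 uridines in the order shown, so most uridines beside a target are not targets themselves.

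The libraries differed in depth and in make-up. The number of mapped reads was 1214217 and 730583 in Dbp7-HTP cells and 159127 and 467529 in WT, of which the first value of each strain was estimated and the second is given in a file header. Reads scaled to 1000000 mapped reads are given as RPM. The snoRNA class as a whole took 11514 and 11942 RPM in Dbp7-HTP cells and 26496 and 9186 RPM in WT, so the 2 WT libraries differed by 2.88-fold in this class. A nucleotide of 25S was covered by 2031 and 1967 RPM on average in Dbp7-HTP cells and by 869 and 586 RPM in WT. The ratio of the strain means was 2.75, which is 1.48 on the log2 scale.

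Reads of the 5 guides were few in both strains, and for 4 of them the interval of the ratio between the strains included 1, as it did for 36 of the 75 snoRNAs whose reads in both libraries added up to 10 or more. Values per snoRNA were used for the second library of each strain only, so the ratios have no replicate check and no test. Their 95% intervals (Clopper-Pearson) cover counting error of these 2 libraries only. No library of total RNA was used here, so how much of a snoRNA the cells held and how much of it was cross-linked cannot be told apart.

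SNR86, the guide of U2314, had the highest ratio of the 5. It had 86 reads (117 RPM) in Dbp7-HTP cells and 33 reads (70 RPM) in WT, a ratio of 1.67 (1.10 to 2.57), and it was the only guide of the 5 whose interval did not include 1. Among the 75 snoRNAs the interval lay above 1 for 11 (14.7%) and below 1 for 28 (37.3%), so 1 of 5 above is close to the listed snoRNAs at large. SNR84, the guide of U2266, had 27 reads (36 RPM) in Dbp7-HTP cells and 13 reads (27 RPM) in WT, a ratio of 1.33 (0.663 to 2.81). SNR191, the guide of U2258 and U2260, had 29 reads (39 RPM) in Dbp7-HTP cells and 17 reads (36 RPM) in WT, a ratio of 1.09 (0.58 to 2.12). For these guides the ratio was above 1, and for SNR84 and SNR191 the interval also held values below 1.

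SNR32, the guide of U2191, had 29 reads (39 RPM) in Dbp7-HTP cells and 23 reads (49 RPM) in WT, a ratio of 0.807 (0.451 to 1.46). SNR3, which has 3 targets, had 65 reads (88 RPM) in Dbp7-HTP cells and 57 reads (121 RPM) in WT, a ratio of 0.73 (0.503 to 1.06). Both had lower RPM in Dbp7-HTP cells, and both intervals included 1. The side of 1 depends on the denominator, since SNR3 was at 1.08 and SNR32 at 1.19 when scaled to listed snoRNA reads without snR190 and at 1.64 and 1.81 on reads outside rRNA, while SNR191 was at 0.84 on listed snoRNA reads and 0.85 on box H/ACA reads.

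**Figure D1:**
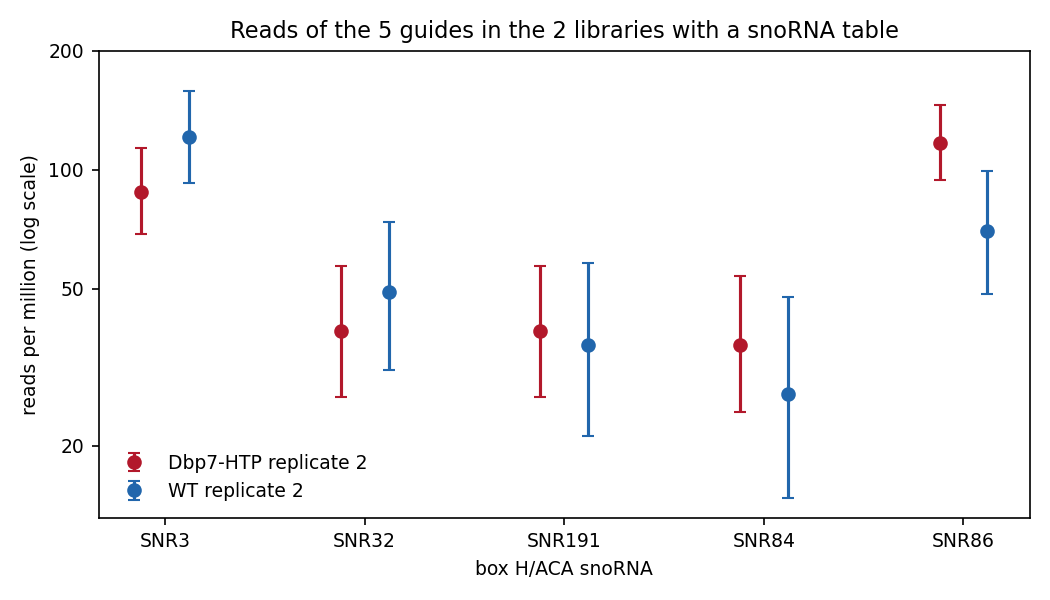
RPM (log scale) of each guide in Dbp7-HTP replicate 2 and WT replicate 2, with the 95% Poisson interval of the count. SNR86 had 117 RPM in Dbp7-HTP cells against 70 RPM in WT, and for each of the 5 guides the 2 intervals overlap.

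None of the 5 guides was above 2 and none below 0.5, against 9 above 2 (12.0%) and 27 below 0.5 (36.0%) of the 75 snoRNAs. The median ratio of the guides was 1.09, and that of all 75 was 0.73. Ranked from the highest ratio down, SNR86 was at place 14, SNR84 at 20, SNR191 at 27, SNR32 at 34 and SNR3 at 38. Summed over the 5 guides there were 236 reads in Dbp7-HTP cells and 143 in WT, a pooled ratio of 1.06 (0.854 to 1.31). The snoRNAs nearest to the guides' median were SNR11 at 1.07, SNR17B, 1 of the near-identical gene copies of U3, at 1.07, and SNR46 at 1.14. The RPM ratio depends on the denominator. Scaled to reads outside rRNA, every ratio is 2.25 times as large, and then 3 of the 5 guides (SNR86, SNR84 and SNR191) are above 2, beside 32 of the 75 snoRNAs.

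**Figure D2:**
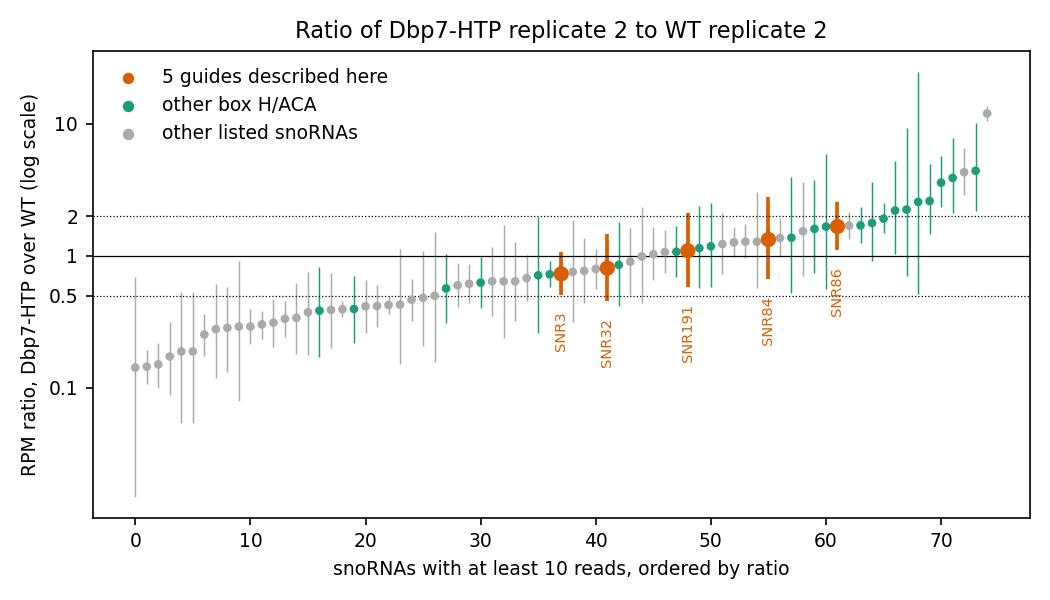
RPM ratio (log scale) of Dbp7-HTP replicate 2 over WT replicate 2 for 75 snoRNAs in order of the ratio, with 95% Clopper-Pearson intervals. The 5 guides (orange) lie between 0.73 and 1.67, inside the dotted lines at 0.5 and 2, with box H/ACA snoRNAs (green) on both sides of them.

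Most pairs of guides could not be told apart at this depth. Of the 10 pairs of guides, the 95% exact interval of the ratio of the ratios lay off 1 for 1 pair, SNR86 against SNR3, at 2.29 (1.29 to 4.06), an interval that was not widened for the number of pairs. For SNR86 against SNR32 it was 2.07 (0.987 to 4.29). SNR86 made up 36.4% (30.6 to 42.8, Wilson) of the guides' reads in Dbp7-HTP cells and 23.1% (16.9 to 30.6) in WT, and SNR3 made up 27.5% (22.2 to 33.6) in Dbp7-HTP cells and 39.9% (32.2 to 48.1) in WT.

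Per length the guides kept 1 order in both strains. Scaled to the gene lengths of the RefSeq annotation, which are 194 nt for SNR3, 188 nt for SNR32, 274 nt for SNR191, 550 nt for SNR84 and just over 1 kb for SNR86, SNR3 had 454 RPM per kb in Dbp7-HTP cells and 624 in WT. SNR32 had 207 RPM per kb in Dbp7-HTP cells and 261 in WT, and SNR191 had 142 in Dbp7-HTP cells and 131 in WT. SNR86 had 117 RPM per kb in Dbp7-HTP cells and 69.7 in WT, and SNR84 had 65.5 in Dbp7-HTP cells and 49.1 in WT. Among neighbours in this order, SNR3 and SNR32 were apart beyond their 95% counting intervals in both libraries, and the other neighbours overlapped in both. SNR86, with the most reads in Dbp7-HTP cells, is also the longest gene of the 5. The genes lie on 5 different chromosomes.

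The other box H/ACA snoRNAs had a higher median ratio than these guides. Of 24 listed, 23 had at least 10 reads, with a median ratio of 1.6, and there were 7 above 2 and 2 below 0.5. Their reads summed to 1282 in Dbp7-HTP cells and 613 in WT, a pooled ratio of 1.34 (1.21 to 1.48). The ratio of the guides' pooled ratio to theirs was 0.789, with an exact interval that ran from 0.624 to 1. The 5 guides made up 15.6% (13.8 to 17.5, Wilson) of all box H/ACA reads in Dbp7-HTP cells and 18.9% (16.3 to 21.9) in WT, and these intervals overlap.

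The guides whose targets come next along 25S lay on both sides of the 5. SNR82, the guide of U2349 and U2351, had 140 reads in Dbp7-HTP cells and 25 in WT, a ratio of 3.58 (2.33 to 5.73). SNR9, the guide of U2340, had 21 reads in Dbp7-HTP cells and 34 in WT, a ratio of 0.395 (0.218 to 0.701). The pooled ratio of the 5 guides was 0.295 times (0.176 to 0.481) that of SNR82 and 2.67 times (1.44 to 5.04) that of SNR9.

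Box C/D snoRNAs guide 2′-O-methylation by fibrillarin (Nop1 in yeast), and 5 of them act within the same part of 25S. SNR47 (A2220) had 56 reads in Dbp7-HTP cells and 248 in WT, a ratio of 0.145 (0.106 to 0.194), and SNR75 (G2288) had 70 reads in Dbp7-HTP cells and 73 in WT, a ratio of 0.614 (0.436 to 0.864). SNR13 (A2280 and A2281) had a ratio of 0.795, SNR76 (C2197) 0.498 on 7 reads in Dbp7-HTP cells and 9 in WT, and SNR63 (A2256) 1.03. The median of these 5 was 0.614. Their pooled ratio was 0.396 (0.338 to 0.463), and that of the 5 H/ACA guides was 2.67 times as high (2.04 to 3.48). SNR47 alone made up 248 of the 425 WT reads of these 5 box C/D guides.

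Coverage of the 25S rRNA at the targets, which is measured in all 4 libraries, was higher in Dbp7-HTP cells at 7 of the 8 uridines without overlap between the strains, against 68.4% of all 869 uridines of 25S. As a share of 25S coverage the same targets were lower in Dbp7-HTP cells, at 7 of 8 without overlap, against 46.0% of all 25S uridines. The direction thus depends on the scale, since 25S as a whole had more reads in Dbp7-HTP cells. Targets a few nucleotides apart are covered largely by the same reads, so the 8 are not independent sites. With 2 libraries against 2, the smallest p that the exact two-sided permutation test can give is 0.333, so no single site can pass 0.05.

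At the targets of SNR3, coverage in Dbp7-HTP cells was more than 2-fold that of WT. U2129 had 1345 and 1306 RPM in Dbp7-HTP cells and 647 and 396 RPM in WT, a difference of 1.39 on the log2(RPM + 1) scale. U2133, 4 nt further on, had 1188 and 1079 RPM in Dbp7-HTP cells and 597 and 329 RPM in WT, a difference of 1.35. U2264, the distant target of SNR3, had 2028 and 2026 RPM in Dbp7-HTP cells and 1175 and 815 RPM in WT, a difference of 1.05. In each case both Dbp7-HTP libraries were above both WT libraries, and the 2 WT libraries lay further apart than the 2 Dbp7-HTP libraries.

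The targets next to U2264 had similar values, and sites so close together are covered largely by the same reads. U2258 had 1609 and 1536 RPM in Dbp7-HTP cells and 779 and 704 RPM in WT, a difference of 1.09. U2260, the other target of SNR191, had 2037 and 2027 RPM in Dbp7-HTP cells and 1163 and 811 RPM in WT, a difference of 1.06. U2266, the target of SNR84, had 1996 and 2004 RPM in Dbp7-HTP cells and 1200 and 791 RPM in WT, a difference of 1.04. Each of these sites also had no overlap between the strains.

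The remaining targets had the smallest differences over the 4 libraries. U2191, the target of SNR32, had the highest coverage of the 8 in each of the 4 libraries, with 2468 and 2851 RPM in Dbp7-HTP cells and 2174 and 1305 RPM in WT, a difference of 0.66. U2314, the target of SNR86, had 1646 and 1580 RPM in Dbp7-HTP cells and 1684 and 652 RPM in WT, a difference of 0.62. At U2314 the strains overlapped, since WT replicate 1 was the highest of the 4 libraries (exact permutation p = 1), and the difference was -0.06 without WT replicate 2 and 1.30 without WT replicate 1. The difference at U2191 was 0.29 without WT replicate 2 and 1.02 without WT replicate 1, so the size of both differences rests on which WT library is used. U2191 stayed below every target other than U2314 in either case. U2314 was the lowest of the 8 without WT replicate 2, but above U2191 and U2258 (1.16) without WT replicate 1.

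**Figure D3:**
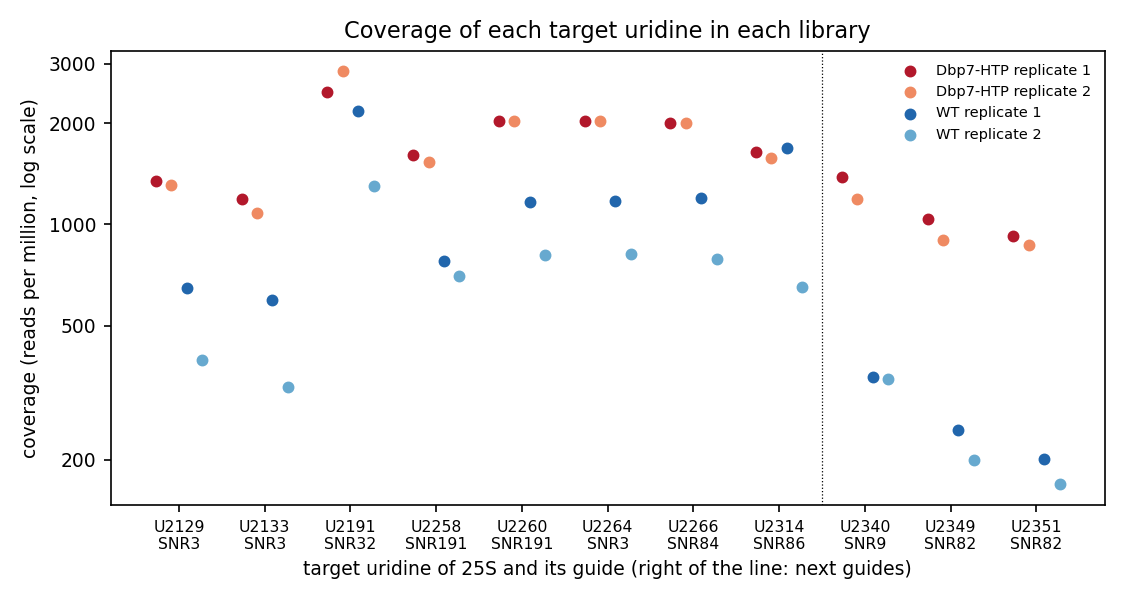
Coverage (RPM, log scale) of each target uridine in the 2 Dbp7-HTP libraries (red) and the 2 WT libraries (blue), with the guide under each site. At 7 of 8 targets of the guides both Dbp7-HTP libraries are above both WT libraries, at U2314 WT replicate 1 is the highest, and the next targets to the right differ more.

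The median difference over the 8 targets was 1.06 on the log2 scale, beside 1.02 for all 869 uridines of 25S, 0.61 for the other 40 uridines between U2129 and U2314, and 1.64 for 22 uridines of 25S guided by other box H/ACA snoRNAs. The targets of the next guides had 1.88 (U2340), 2.12 (U2349) and 2.27 (U2351). Scaled to 25S coverage, the 8 targets had differences between -0.86 and -0.10, with a median of -0.43, the other 40 uridines of the stretch were all lower without overlap, and the 3 next targets were all higher.

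The stretch of 186 nt from U2129 to U2314 held a smaller part of the 25S reads in Dbp7-HTP cells than in WT. The stretch is 5.48% of the length of 25S. Its part of 25S coverage was 4.88% and 5.0% in Dbp7-HTP cells and 9.57% and 8.16% in WT. Its mean coverage was 89.0% and 91.4% of the 25S mean in Dbp7-HTP cells and 175% and 149% of it in WT. In RPM the mean was 1808 and 1797 in Dbp7-HTP cells and 1518 and 874 in WT, so that the stretch was covered more in Dbp7-HTP cells in reads and less as a share of 25S.

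Within the stretch the reads lay in blocks with low points between them. Coverage was lowest at nucleotide 2226 in Dbp7-HTP cells, with 418 and 322 RPM, and at nucleotide 2143 in WT, with 233 and 227 RPM. It was highest at 2179 (3118 RPM) in Dbp7-HTP replicate 1, at 2189 (3252 RPM) in Dbp7-HTP replicate 2, at 2299 (3287 RPM) in WT replicate 1 and at 2189 (1743 RPM) in WT replicate 2. U2191 thus lies beside the highest point of 2 libraries, and WT replicate 1 stands apart through the block before U2314.

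**Figure D4:**
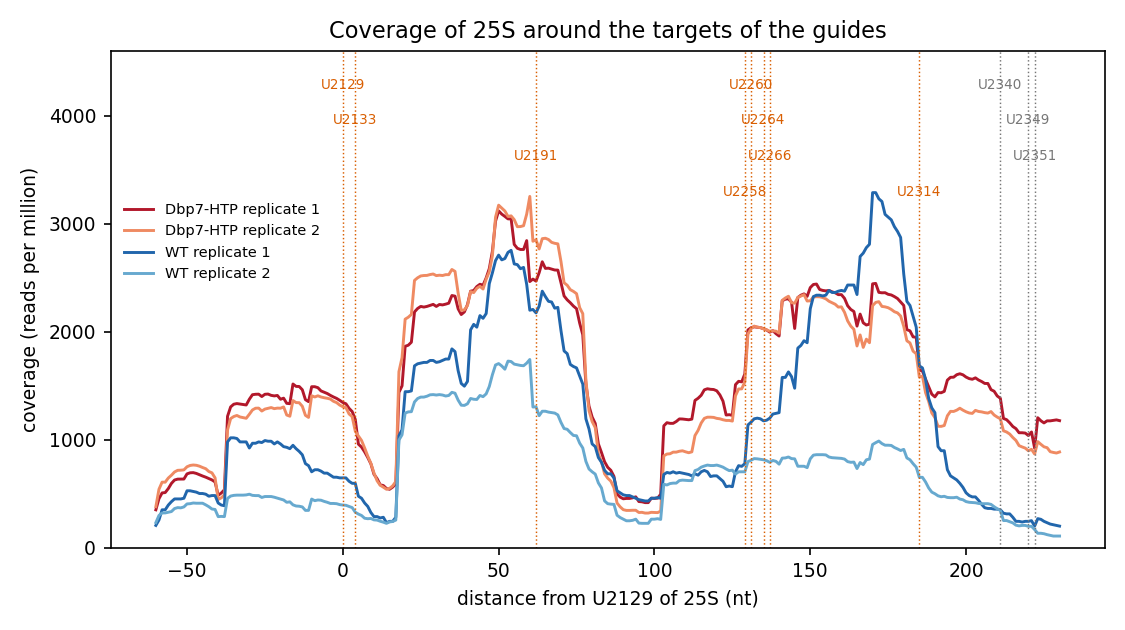
Coverage (RPM) of each nucleotide from before U2129 to beyond U2351 in the 4 libraries, with distance in nt from U2129 on the x axis and dotted lines at the targets of the 5 guides (orange) and of the next guides (grey). The Dbp7-HTP libraries lie above WT replicate 2 over the targets, while WT replicate 1 reaches 3287 RPM before U2314.

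Windows of 50 nt gave the test with replicates. In limma on log2(RPM + 1) over the whole 35S pre-rRNA, 30 of 134 windows (22.4%) were higher in Dbp7-HTP cells and 30 were lower, with Benjamini-Hochberg adjusted p below 0.05, and 0 of the 4 windows that hold a target were among them. At an unadjusted p below 0.05 there was 1 of the 4, against 26.9% of all windows that were higher. The window with U2129 and U2133 had a log2 difference of 1.14 (SE 0.51, limma adjusted p = 0.0754), and that with U2314 had 0.92 (adjusted p = 0.152). The window with U2258, U2260, U2264 and U2266 had 0.79 (adjusted p = 0.209), and that with U2191 had 0.57 (adjusted p = 0.353). Without WT replicate 1, the shallowest library, 3 of the 4 windows were called, all but that with U2191, beside 49 of all 134 windows (36.6%). Without WT replicate 2 none of the 4 was called, and the differences were 0.77 for the window with U2129 and U2133, 0.33 for that with U2314, 0.23 for that with U2258 to U2266 and 0.30 for that with U2191.

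T-to-C substitutions arise when RNA that holds the thiouracil label is reverse transcribed, and WT cells, which carry no tagged protein, had them too. Whether a substituted uridine was itself cross-linked to Dbp7 was not tested. In RPM substitutions were higher in Dbp7-HTP cells without overlap at 5 of the 8 targets, against 58.5% of all 25S uridines. They were lower without overlap at 1 target, U2314, against 53 of all 869 uridines of 25S. The largest differences were at U2266 (2.14 on the log2 scale), where there were 174 and 164 RPM of substitutions in Dbp7-HTP cells and 44.0 and 32.1 in WT, and at U2264 (2.02), with 146 and 133 in Dbp7-HTP cells and 37.7 and 29.9 in WT. At U2314 there were 89.8 and 98.6 RPM in Dbp7-HTP cells and 176 and 126 in WT, a difference of -0.66. The WT counts behind these values were small, with 6 and 14 substitutions at U2264 and 7 and 15 at U2266.

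The share of reads at a site that carry a substitution there does not depend on library totals. At U2264 it was 7.19% and 6.55% in Dbp7-HTP cells and 3.21% and 3.67% in WT, and at U2266 it was 8.71% and 8.20% in Dbp7-HTP cells and 3.66% and 4.05% in WT. At these 2 sites, the targets of SNR3 and SNR84, both Dbp7-HTP libraries were higher. At U2260, 4 nt before U2264, the share was 9.14% and 10.5% in Dbp7-HTP cells and 15.7% and 19.8% in WT, and at U2314 it was 5.45% and 6.24% in Dbp7-HTP cells and 10.4% and 19.3% in WT. At these sites, the targets of SNR191 and SNR86, both Dbp7-HTP libraries were lower. The strains thus differed in opposite directions at uridines of the same 29 nt, while coverage in RPM was nearly equal at U2260, U2264 and U2266. Only reads with a T-to-C change were kept, so shares at uridines covered by the same reads are tied to each other. How far this tie shaped the opposite directions was not tested. The Wilson intervals of WT replicate 1 and Dbp7-HTP replicate 2 overlapped at U2264 (1.48% to 6.82% and 5.40% to 7.93%). They also overlapped at U2266 (1.79% to 7.37% and 6.90% to 9.71%), U2260 and U2314.

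The other targets overlapped between the strains in this share. U2129 had 3.80% and 5.45% in Dbp7-HTP cells and 6.80% and 2.70% in WT, and U2133 had 5.27% and 4.57% in Dbp7-HTP cells and 8.42% and 5.19% in WT. U2258 was nearly level, with 6.70% and 7.13% in Dbp7-HTP cells and 7.26% and 6.99% in WT. U2191, the best covered target, had the lowest share of the 8 in Dbp7-HTP cells, at 1.97% and 2.06%, against 2.02% and 4.26% in WT. Among the 316 uridines of 25S with at least 100 reads in every library, 35.8% were higher and 31.0% lower without overlap, and 7 of the 8 targets are among them, since U2133 had 95 reads in WT replicate 1. With 2 higher and 2 lower of these 7, the targets were close to 25S uridines at large.

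**Figure D5:**
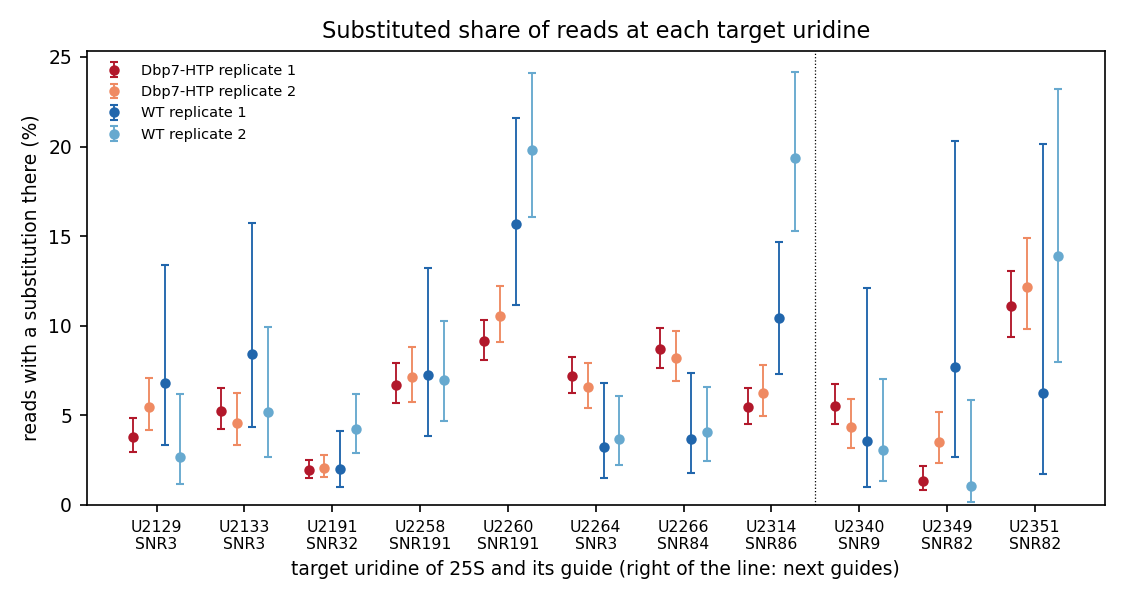
Share of reads (%) with a substitution at each target uridine in the 4 libraries, with 95% Wilson intervals that cover counting error only. Both Dbp7-HTP libraries (red) are below both WT libraries (blue) at U2260 and U2314 and above them at U2264 and U2266.

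The targets had a lower substituted share than most uridines around them. The median share over the 8 targets was 6.08% and 6.40% in Dbp7-HTP cells and 7.03% and 4.73% in WT, and that of the other 40 uridines of the stretch was 12.1% and 13.6% in Dbp7-HTP cells and 12.8% and 9.24% in WT. All 8 targets were below the median of these other uridines in both Dbp7-HTP libraries, as were 7 and 6 of 8 in WT. The 22 uridines of 25S with other H/ACA guides had medians of 5.07% and 4.22% in Dbp7-HTP cells and 6.25% and 4.26% in WT, and all uridines of 25S had 7.72% and 8.09% in Dbp7-HTP cells and 8.16% and 7.75% in WT. Of all substitutions in the stretch, the 8 targets held 8.12% and 7.95% in Dbp7-HTP cells and 6.31% and 9.32% in WT.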

How the data were processed

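Cells of both strains were labelled with 4-thiouracil and cross-linked, and bound RNA was sequenced. The authors mapped reads with Bowtie2 (version 2.2.4), as the submitters' processing notes name it, kept those with T-to-C changes, and deposited the coverage signal and the count of substitutions at each nucleotide of the 35S pre-rRNA, both without normalization. The deposited snoRNA and RNA class values are scores, that is, RPM cut to whole numbers by the authors. The genome release is not given in the sources used here.

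Reads of snoRNAs were recovered from the scores and the totals in the file headers, and 100% of the values came out as whole reads. The totals of the first replicates were estimated from 35S coverage and rRNA RPM, with the strain's other library setting how much coverage a read gives. Coverage and substitutions of the first replicates in RPM rest on these estimates. The spread between replicates in RPM, the counts without overlap and the p-values thus depend on them in part. In the 35S tables, 4 repeated nucleotides at block borders were dropped, leaving 6858 of 35S and 3396 of 25S. Target positions are from general knowledge of yeast snoRNAs, and 36 of 36 positions had the named base in the deposited sequence. Gene lengths are from RefSeq (77 of 77 snoRNAs matched), of which no coordinates were used.

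Ratios were ranked over snoRNAs whose reads in both libraries summed to 10 or more. Sites were compared by exact permutation on log2(RPM + 1), and windows of 50 nt, if their mean reached 10 RPM, by limma 3.58.1 under R 4.3.3. Adjusted p (Benjamini-Hochberg) was called at 0.05, and the limma step was checked on simulated data. The simulated windows were independent and their shift was larger than the differences of the target windows. How often differences of that size would be called was not tested. Other values used Python 3.11.15, numpy 2.4.6, scipy 1.17.1, pandas 2.3.3 and matplotlib 3.10.9. Reads carry no molecular identifiers that were used here, so intervals and shares cover counting error only. The 2 experiments are called independent in the study, but the labels do not name separate cultures, so p-values measure the spread between these libraries, which may be technical. The snoRNAs named are the 5 guides, the guides of the next targets, the box C/D guides of the same stretch and the 3 snoRNAs nearest to the median of the guides. On 25S, the highest and lowest coverage in the stretch was named for each library. The members, lists and alternatives were chosen with earlier results of these data known. The substituted share, and ratios from the last column of the snoRNA tables, which has no label, were added after the data were seen.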

Additional observations from a re-analysis of the deposited data

How the results depend on the processing

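Scaling moved most values. The median ratio of the 5 guides was 1.09 in RPM, 0.84 when scaled to listed snoRNA reads and 0.85 to box H/ACA reads. Scaled to listed snoRNA reads without snR190 it was 1.61, with 1 guide above 2, beside 19 of the 75 snoRNAs. Scaled to reads outside rRNA it was 2.46, with 3 guides above 2, beside 32 of the 75. As a share of 35S coverage, the median log2 difference in coverage of the 8 targets was 0.22 in place of 1.06, and U2191 (-0.18) and U2314 (-0.21) were negative. As a share of 25S coverage the median was -0.43, with 0 targets higher without overlap, beside 207 of the 869 uridines of 25S. The differences were -0.10 (U2129), -0.13 (U2133), -0.83 (U2191), -0.40 (U2258), -0.42 (U2260), -0.44 (U2264), -0.45 (U2266) and -0.86 (U2314). The median difference in substitutions, 0.96 in RPM, was 0.81 with 10 RPM added in place of 1, 0.11 as a share of 35S substitutions, with 3 targets higher without overlap and negative values at U2191 (-0.74), U2260 (-0.64) and U2314 (-1.52), and -0.53 as a share of 25S substitutions, with 2 higher without overlap and negative values at U2129 (-0.047), U2133 (-0.59), U2191 (-1.38), U2258 (-0.47), U2260 (-1.29) and U2314 (-2.17), the last of which was also negative in RPM. For these counts in substitutions the share over all 25S uridines is not given here. The cause of the shifts with scaling was not tested, beyond that 25S as a whole had more reads with Dbp7-HTP.

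Leaving out each library in turn gave a median coverage difference of 0.80 to 1.32 and a median substitution difference of 0.36 to 1.39. Counts without overlap are not given for these omissions, since leaving out a library can only keep or raise them. U2314 ranged from -0.063 (without WT replicate 2) to 1.30 in coverage, and U2191 from -0.055 (without WT replicate 1) to 0.28 in substitutions, with -0.025 without Dbp7-HTP replicate 2. The number of target windows called was 0 to 3 over these omissions, with 3 without WT replicate 1, where the lone library of a strain is assumed to vary like the other strain, and 1 with a limma trend. The 1 target window called with the trend stands beside 33 of all 134 windows that were higher. As a share of 35S coverage, the windows with U2191 (-0.26) and with U2258 to U2266 (-0.042) were negative. The replicate number was also used as a block, a pairing the labels do not establish. The median was then 1.06 for coverage, with 7 targets higher in both pairs. It was 0.96 for substitutions, with 7 higher in both pairs. With the block 0 target windows were called, beside 31 of all 134 windows that were higher. Every site higher without overlap is also higher in both pairs, so this rule is looser. The share of all 25S uridines that meet it is thus at least 68.4% for coverage and 58.5% for substitutions, and its exact value is not given here. Deviations of the libraries with the same number correlated at 0.12 over 134 windows for 2 pairs. No library could be left out of the snoRNA ratios, which rest on 1 library of each strain. Depth limits the guides too, since SNR84 had 13 reads and SNR191 17 reads in WT, and WT replicate 1 had 6 to 29 substitutions at a target.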
